A study of Mus musculus with 6 samples.

Results

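Voltage-gated calcium channels are described here through 5 of their subunit genes, chosen by name as pore-forming and auxiliary subunits: CACNA1A, CACNA1C, CACNA1D, CACNB2 and CACNG2. All 5 were found among the 13702 genes of the count table, and 14 of 26 further channel subunits searched for were listed too. RNA sequencing had been done on pancreatic islets of 12-week-old mice, with 3 libraries of β-PCKO mice (KO) and 3 of wild-type (WT) littermates. The name β-PCKO, read with the study's title, stands for a knockout of pyruvate carboxylase in the insulin-secreting β-cells. This enzyme turns pyruvate into oxaloacetate in mitochondria. The Cre driver and the alleles behind the deletion, whether the littermates carry either, and whether islets were pooled are not given in the sources used here. The libraries are labelled mouse, but the counts stand under human gene identifiers, so each value counts the reads that were given to a gene with a human name.

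A voltage-gated calcium channel opens when the membrane depolarizes and lets calcium into the cell. The α1 subunit forms the pore and sets the channel's type. A cytoplasmic β subunit binds the α1 subunit, brings it to the membrane and tunes its gating, and α2δ subunits lie outside the cell. In β-cells, closure of ATP-sensitive potassium channels depolarizes the membrane, L-type and other calcium channels open, and the calcium that enters triggers the release of insulin granules. In the deposited annotation all 5 genes belong to the voltage-gated calcium channel complex, CACNA1C and CACNA1D to the insulin secretion pathway and CACNG2 to the AMPA glutamate receptor complex.

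The starts of the mouse genes Cacnb2 and Cacng2 are shown because their human-named counterparts were the pair of members that passed the test. RefSeq's promoter table for GRCm38.p6 matched 4 of the 5 members by symbol, not Cacna1a. The 250 bases before each listed start were searched on both strands for TGACG, the core of the cyclic AMP response element that the calcium-activated factor CREB binds, for its full form TGACGTCA, and for the E-box CAGCTG, a motif of basic helix-loop-helix factors added after the sequences had been seen. Capitals mark TGACG, on either strand, and CAGCTG. The windows are chr2:14604056-14604305 and chr2:14823842-14824091 on the plus strand for Cacnb2 and chr15:78119281-78119530 on the minus strand for Cacng2.
Cacnb2, the first listed start: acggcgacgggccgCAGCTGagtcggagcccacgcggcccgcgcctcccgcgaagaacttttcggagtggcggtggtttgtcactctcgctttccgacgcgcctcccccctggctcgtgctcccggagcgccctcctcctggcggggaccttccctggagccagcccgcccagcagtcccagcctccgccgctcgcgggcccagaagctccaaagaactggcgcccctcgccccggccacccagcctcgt
Cacnb2, the second listed start: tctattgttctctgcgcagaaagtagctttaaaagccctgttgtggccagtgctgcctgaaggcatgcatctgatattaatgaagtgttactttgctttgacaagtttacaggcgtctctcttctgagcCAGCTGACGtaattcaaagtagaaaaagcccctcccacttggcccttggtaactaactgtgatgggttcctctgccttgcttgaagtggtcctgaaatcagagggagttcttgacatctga
Cacng2: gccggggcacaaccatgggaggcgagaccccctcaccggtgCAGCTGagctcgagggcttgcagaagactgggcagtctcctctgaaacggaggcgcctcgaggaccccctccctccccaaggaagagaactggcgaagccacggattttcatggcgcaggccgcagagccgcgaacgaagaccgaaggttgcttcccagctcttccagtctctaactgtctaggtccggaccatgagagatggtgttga
CAGCTG stood once in each of these 3 windows, and a window of Cacna1d, which was not called, held it too. It occurs in 13% of all 32851 promoter windows of this length, but since it was picked from these sequences nothing can be read from that comparison. TGACG stood once, overlapping the CAGCTG of the second Cacnb2 window, and once in a window of Cacna1c, also not called, and 17.8% of all windows hold it. TGACGTCA was in none of them (0 in each), against 1.55% of all windows. Gene counts do not tell which start was used.

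The libraries differed in depth and in the tissue genes they held, and this bears on each value below. WT replicates 1, 2 and 3 held 35906, 377876 and 135441 counts in total, and each KO library between 224898 and 225561. Levels are given as CPM, a gene's reads for each 1000000 of the library size that edgeR's TMM method sets. On this scale 1 count is worth 25.7 CPM in WT replicate 1, 4.0 in WT replicate 2 and 6.31 in WT replicate 3. Of 35 squamous epithelium markers, 34 were listed and took 23.4% of the counts of WT replicate 2. Their share was 0.0975% in WT replicate 1, 0.149% in WT replicate 3 and 0.0751% to 0.0944% across KO. Of 20 connective tissue markers, 19 were listed and took 1.62% of WT replicate 3, where the remaining WT libraries had 0.171% and 0.810% and KO 0.668% to 0.697%. Of 25 islet endocrine markers, 12 were listed and took 0.348%, 0.0199% and 0.0665% of WT replicates 1 to 3 and 0.352% to 0.397% of KO. INS, GCG and SST, the hormone genes that define islet cells, were not among the listed names. The KO libraries were close to each other (chi-square over its degrees of freedom 1.96 to 2.02, where 1 is sampling noise), unlike the WT libraries (16.5 to 35.1). The targeted gene, PC, had 0, 4 and 0 WT counts and 0 in each KO library, too few to check the labels. The labels do not say that the libraries came from separate animals, so the spread behind each p-value may be technical. Fewer cells of a type and less RNA per cell cannot be told apart in such libraries.

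Of the 5 subunits, the auxiliary genes CACNB2 and CACNG2 were higher in KO past the test's threshold, and the pore genes CACNA1A, CACNA1C and CACNA1D did not pass. CACNB2 and CACNG2 had no count in any WT library and 23 to 40 counts in each KO library. They entered the test only through those KO counts, and all 18 tested genes without a WT count were called, so nothing is read from the calls about auxiliary against pore genes, a difference that was not tested. CACNA1A and CACNA1C had more CPM in every KO library than in any WT library, as did 22.6% of all tested genes, but WT replicate 1 lay close below KO, and scaled by library totals the groups of CACNA1C overlapped. CACNA1D, the subunit with the most counts in every library, overlapped between the groups. The test was edgeR's quasi-likelihood test on all 2560 genes with enough counts, with Benjamini-Hochberg adjustment at 0.05. It called 5.04% of tested genes higher in KO, 3.01% lower and 8.05% in either direction, and the median log2 fold change over all of them was −0.14.

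**Figure D1:**
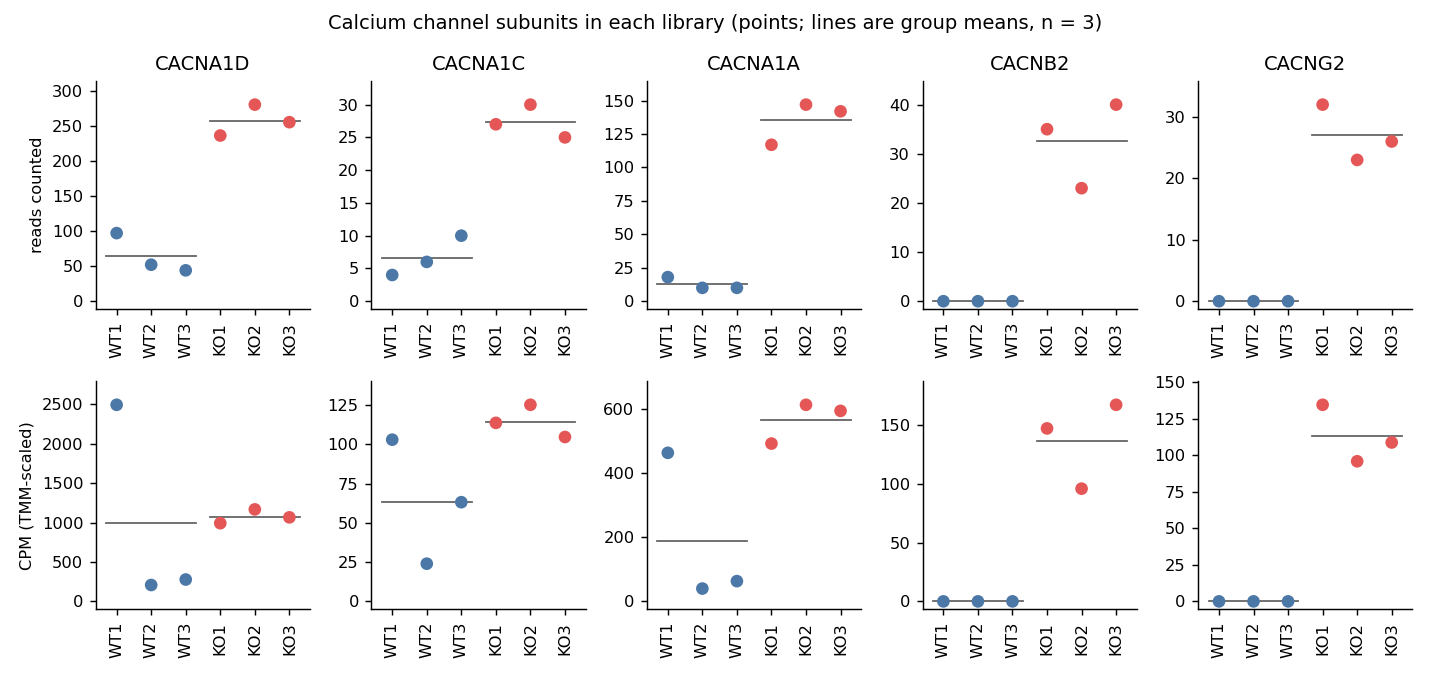
Reads counted (top) and TMM-scaled CPM (bottom) of the 5 calcium channel subunits in each library, with WT in blue, KO in red and lines at the group means (n = 3). CACNB2 and CACNG2 lie at 0 in the WT libraries, and the CPM of CACNA1D in WT replicate 1 (2496) lies above all KO libraries while those of WT replicates 2 and 3 lie below.

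CACNA1D (ENSG00000157388) encodes Cav1.3, an L-type pore subunit that opens at comparatively low voltage. In WT replicates 1 to 3 it was read 97, 52 and 44 times, and in KO replicates 1 to 3 it was read 236, 280 and 255 times. On the CPM scale these were 2496, 208 and 278 in WT and 993, 1168 and 1067 in KO. WT replicate 1 thus stood above every KO library and WT replicates 2 and 3 below every one. The means were 994 ± 1301 CPM in WT and 1076 ± 87.9 in KO (SD, n = 3 each), and the log2 fold change, KO minus WT, was 0.16 ± 0.87 (SE; adjusted p = 0.913 in edgeR). The sign of this value rested on single libraries. Without WT replicate 1 it was 2.61 (adjusted p = 0.00238), and with WT replicate 1 as the lone WT library it was −1.14 (adjusted p = 4.66e-05), a fit that borrows its spread from the KO libraries. Other genes moved with that choice too: 46.6% of all tested genes were called without WT replicate 1, all 5 subunits among them, and 26.2% against it alone.

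CACNA1A (ENSG00000141837) encodes Cav2.1, the P/Q-type pore subunit that drives transmitter release at nerve endings and contributes calcium current in β-cells. It had 18, 10 and 10 counts in WT and 117, 147 and 142 in KO. In CPM these were 463, 40.0 and 63.1 in WT and 492, 613 and 594 in KO. The groups did not overlap, but the highest WT library and the lowest KO library were neighbours. The log2 fold change was 1.79 ± 0.86 (SE) and did not pass (adjusted p = 0.201 in edgeR, n = 3 each). It was 3.93 (adjusted p = 0.00223) without WT replicate 1 and 0.37 (adjusted p = 0.426) against WT replicate 1 alone.

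CACNA1C (ENSG00000151067) encodes Cav1.2, the L-type pore subunit of heart and smooth muscle that also serves insulin secretion in mouse β-cells. It was the least counted pore member, with 4, 6 and 10 counts in WT and 27, 30 and 25 in KO. In CPM these were 103, 24.0 and 63.1 in WT and 114, 125 and 105 in KO. The lowest KO value was just above WT replicate 1 on this scale. Scaled by library totals it was just below, at 111.2 in KO replicate 3 and 111.4 in WT replicate 1. The log2 fold change was 1.05 ± 0.71 (SE), which did not pass (adjusted p = 0.338 in edgeR), and it was 1.89 (adjusted p = 0.0330) without WT replicate 1 and 0.23 (adjusted p = 0.824) against that library alone.

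CACNB2 (ENSG00000165995) encodes the β2 subunit, a cytoplasmic partner of L-type pores best known from heart. It had 0 counts in each WT library and 35, 23 and 40 in KO, or 137 ± 36.8 CPM (SD, n = 3). Taking 3 counts over the WT group as the most that a count of 0 allows, it was at least 20.3-fold higher in KO (adjusted p = 0.0237 in edgeR). CACNG2 (ENSG00000166862) encodes stargazin, a membrane protein first found as a calcium channel γ subunit in mice with absence seizures and known mainly for carrying AMPA receptors to the synapse. It had 0 counts in each WT library and 32, 23 and 26 in KO, or 113 ± 19.7 CPM (SD, n = 3), at least 16.8-fold higher in KO (adjusted p = 0.0237 in edgeR).

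The size of the bound depends on which WT libraries stand behind it. Against WT replicate 1 alone, where 3 counts amount to 77.2 CPM, CACNB2 was at least 1.77-fold and CACNG2 at least 1.46-fold higher. Against WT replicates 2 and 3 singly, the bounds were 11.4-fold and 7.22-fold for CACNB2 and 9.42-fold and 5.96-fold for CACNG2. Each gene passed in 11 of 16 alternative fits. Both calls were lost without WT replicate 2 (adjusted p = 0.0516 for CACNB2 and 0.0524 for CACNG2), without any 1 KO library (0.0536 to 0.0852 for each) and when all KO counts were added into 1 column (0.302 and 0.361). The share of all tested genes called in either direction in those fits was 0.396% without WT replicate 2 and 0.0897%, 0.120% and 0.480% without KO replicates 1, 2 and 3.

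**Figure D2:**
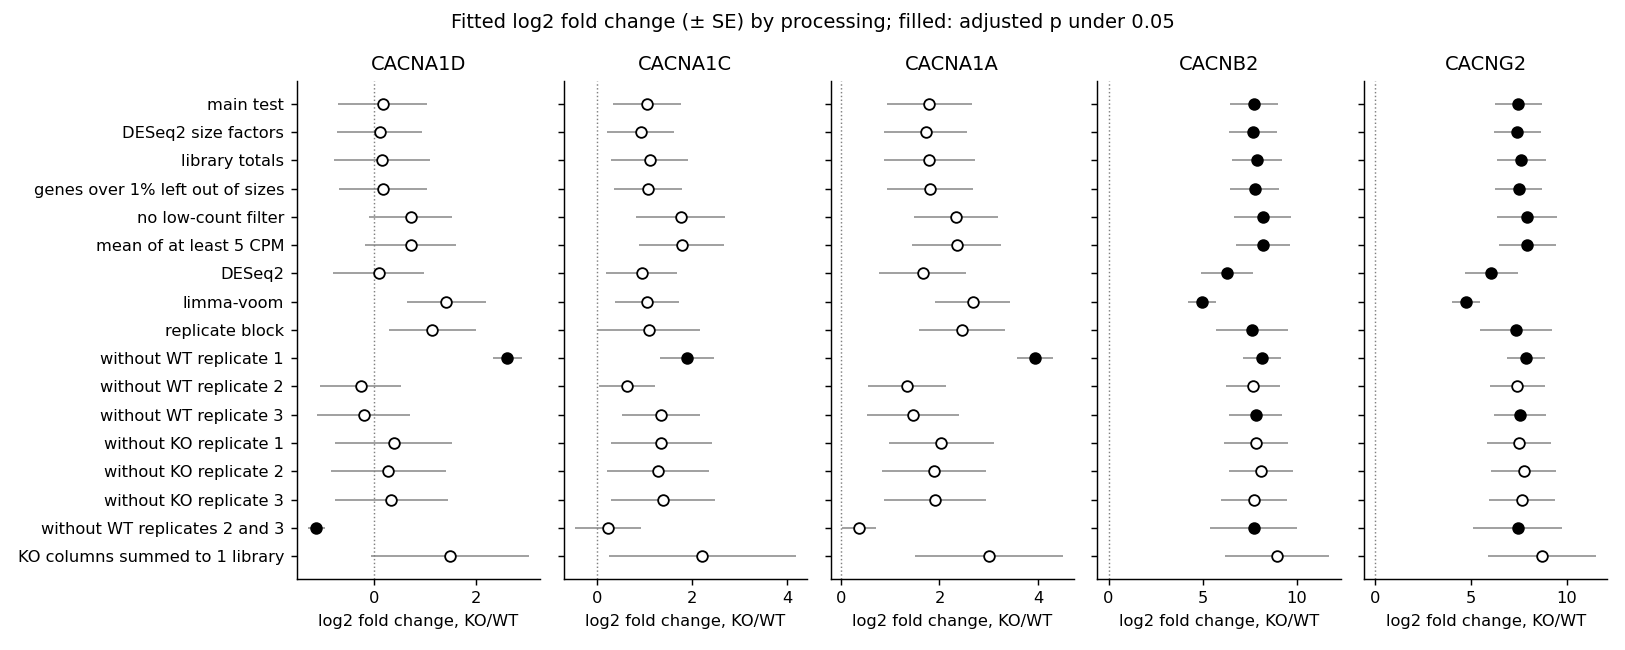
Fitted log2 fold change (KO over WT, ± SE) of each subunit in the main test and 16 alternatives, with filled points at an adjusted p under 0.05. The pore subunits pass only without WT replicate 1, apart from CACNA1D, which also passes in the opposite direction (−1.14) against WT replicate 1 alone, and the fitted values of CACNB2 and CACNG2 depend on the prior count because WT counts are 0.

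A ratio of counts within a library does not depend on its depth or on the other tissues in it that lack both genes. The ratios were chosen after the data had been seen, and reads, not molecules, are compared. For every 100 reads of CACNA1D, CACNA1A had 18.6, 19.2 and 22.7 in WT replicates 1 to 3 and 49.6, 52.5 and 55.7 in KO. The WT libraries, far apart in the CPM of both genes, lay within a narrow range, and all KO libraries lay above it. The share of all genes whose ratio to CACNA1D sets the groups apart was not computed. On the CPM scale the groups did not overlap, in either direction, for 34.9% of all tested genes. The WT ratios rest on few reads, 18, 10 and 10 of CACNA1A over 97, 52 and 44 of CACNA1D. Their counting error was not computed, so the narrow WT range is no measure of their precision. The means were 20.2 ± 2.24 in WT and 52.6 ± 3.06 in KO (SD, n = 3 each), and the difference of 32.4 lay between 30.9 and 34.0 with any 1 library, or both WT replicates 2 and 3, left out. The exact two-sided permutation test gave p = 0.1 for CACNA1A, the smallest that 3 against 3 libraries allow, and 0.233 after Benjamini-Hochberg adjustment, both over the 7 ratios to CACNA1D and over all 14 computed, which include 7 to CACNA1A.

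CACNB2 had 14.8, 8.21 and 15.7 reads for every 100 of CACNA1D in KO, and CACNG2 had 13.6, 8.21 and 10.2. Both stood at 0 in each WT library. Against 3 counts over the 193 WT reads of CACNA1D, the KO ratios were at least 8.17-fold higher for CACNB2 and at least 6.76-fold higher for CACNG2. Against the 97 reads of WT replicate 1 alone, these bounds were 4.10-fold and 3.39-fold, larger than those on the CPM scale. With CACNA1A as the denominator they were lower, at 3.05-fold and 2.52-fold over the WT group and 1.44-fold and 1.19-fold against WT replicate 1. All these bounds use summed KO reads and leave out the counting error of KO and denominator reads. KO replicate 2, at 15.65 reads for every 100 of CACNA1A for both genes, lay below the WT replicate 1 floor of 16.67. Against WT replicate 1, then, no rise in every KO library is shown with this denominator. CACNA1C did not follow. It had 4.12, 11.5 and 22.7 reads for every 100 of CACNA1D in WT and 9.80 to 11.4 in KO, so the KO libraries lay inside the WT range (exact permutation p = 0.7).

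**Figure D3:**
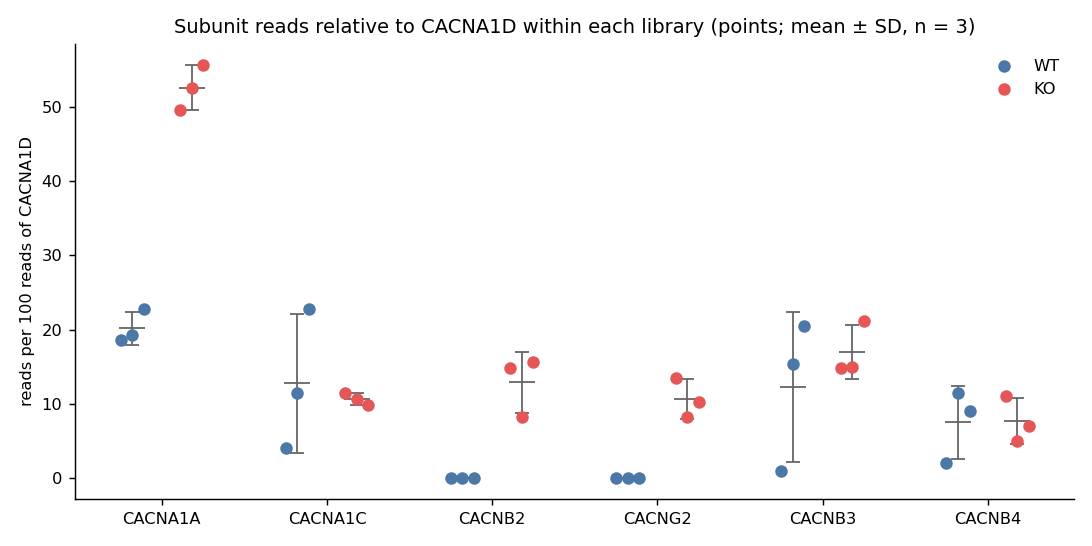
Reads of 6 subunits for every 100 reads of CACNA1D in the same library, with WT in blue, KO in red, and mean ± SD (n = 3 each). CACNA1A lies at 18.6 to 22.7 in WT and 49.6 to 55.7 in KO, CACNB2 and CACNG2 lie at 0 in WT, and CACNA1C, CACNB3 and CACNB4 overlap.

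The make-up of the 5 subunits' own counts differed accordingly. CACNA1D took 81.5%, 76.5% and 68.8% of them in WT replicates 1 to 3 and 52.3% to 55.7% in KO. CACNA1A took 14.7% to 15.6% in WT and 26.2% to 29.2% in KO. Islet endocrine genes moved with the CPM of the pore subunits across the WT libraries. For every 100 reads of the 12 listed endocrine markers, most of them from PAX6, MAFA and NEUROD1, CACNA1D had 77.6, 69.3 and 48.9 in WT and 26.4 to 35.3 in KO. On this scale the KO libraries lay below WT for CACNA1D and overlapped for CACNA1A (11.1 to 14.4 in WT and 13.1 to 18.5 in KO). All 5 subunits together had 95.2, 90.7 and 71.1 in WT and 49.9 to 63.4 in KO, again below WT. The share of all genes whose groups lie apart on this scale was not computed. CACNA1C overlapped, with 3.20 to 11.1 in WT and 2.92 to 3.78 in KO. CACNB2 had 2.90 to 4.67 in KO and CACNG2 2.90 to 3.58, both with 0 in WT. No fold bound was computed on this scale, where the markers had 125, 75 and 90 reads in WT and 793 to 895 in KO. NEUROD1 itself was higher in KO (adjusted p = 0.0450 in edgeR), so the denominator differs between the groups, and its part in these values was not tested.

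Levels of different genes were compared as CPM per kilobase of merged exons of the mouse gene of the same symbol in GENCODE M21 (GRCm38). That length may differ from that of the human-named feature the reads were assigned to. In KO the level was 85.2 ± 6.96 for CACNA1D, 49.6 ± 5.69 for CACNA1A, 45.6 ± 9.94 for CACNB3, 20.5 ± 3.58 for CACNG2, 10.3 ± 2.78 for CACNB2, 9.04 ± 2.90 for CACNB4, 8.31 ± 5.41 for CACNA2D1 and 5.40 ± 0.486 for CACNA1C (SD, n = 3 each). The KO ranges of CACNA1A and CACNB3 overlapped, as did those of each neighbouring pair from CACNB2 down. The other neighbours in this order were apart. In WT the level of CACNA1D ran from 16.5 to 198 CPM per kilobase, so the WT libraries gave no stable order.

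The rest of the channel family was thinly counted. Of the 14 other listed subunits, 3 were tested and none passed (0 higher, 0 lower), where 8.05% of all tested genes were called. Against −0.14 over all tested genes, the median log2 fold change of these 3 was 1.46. At an unadjusted p under 0.05 edgeR found 1 of them, CACNB3, and DESeq2 and limma-voom each called 1. By the same rules edgeR found 729 of all 2560 tested genes, DESeq2 called 17.5% and limma-voom 12.2%. CACNB3, the β3 subunit gene prominent in β-cells, had 1, 8 and 9 counts in WT and 35, 42 and 54 in KO, or 38.2 ± 16.4 and 183 ± 39.9 CPM (SD, n = 3 each). The groups did not overlap, the log2 fold change was 2.17 ± 0.65 (SE) and the adjusted p was 0.0698 in edgeR, with 6 of 16 alternatives past the threshold. CACNB4, another β subunit gene, had 2, 6 and 4 counts in WT and 26, 14 and 18 in KO, and its log2 fold change was 1.46 ± 0.66 (SE; adjusted p = 0.176 in edgeR). Beside CACNB2, then, both other tested β subunits had more CPM in every KO library than in any WT library, which held for 22.6% of all tested genes.

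CACNA2D1, the widely expressed α2δ1 subunit gene, had 4, 10 and 226 counts in WT and 13, 18 and 43 in KO (adjusted p = 0.205 in edgeR). WT replicate 3, the library rich in connective tissue markers, held nearly all of its WT counts, and its log2 fold change was −2.37 with that library and 0.87 without it. NALCN, a sodium leak channel gene related to the pore subunits, had 0, 1 and 7 counts in WT and 9, 11 and 7 in KO. The remaining 10 listed genes had at most 7 counts over all WT libraries and at most 1 over the KO libraries. They were the pore genes CACNA1B, CACNA1E, CACNA1G, CACNA1H and CACNA1I, the auxiliary genes CACNA2D2, CACNB1, CACNG4 and CACNG8, and the sperm channel gene CATSPER2. CACNA1E, which encodes the R-type pore of mouse β-cells, had 1, 2 and 0 WT counts and 0 in each KO library.

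Among 36 partners that hold, tether or modulate the channel, 27 were listed and 10 tested. CAMK2B was higher in KO, and the other 9 did not pass (median log2 fold change of the 10, 0.90). Over all tested genes 5.04% were called higher and 8.05% in either direction, with a median of −0.14. CAMK2B encodes a calcium- and calmodulin-dependent kinase subunit that phosphorylates channels, and similar family members make the division of its reads uncertain. It had 2, 1 and 0 counts in WT and 48, 66 and 38 in KO, a ratio of 31.6 (95% interval 10.6 to 155, for counting error only; adjusted p = 0.0449 in edgeR). Its log2 fold change was 4.57, ran from 3.95 to 6.57 with 1 library left out, and was 2.10 (adjusted p = 0.0650) against WT replicate 1 alone, where 2 counts amount to 51.5 CPM. RIMS2, which encodes the active-zone protein that ties calcium channels to granules, had 1, 1 and 12 counts in WT and 45, 40 and 30 in KO (adjusted p = 0.155). SNAP25, a fusion protein gene whose product binds the channel, had 42, 28 and 93 counts in WT and 291, 381 and 327 in KO (adjusted p = 0.261). CALM2, 1 of 3 genes for the same calmodulin protein, had an adjusted p of 0.225. The groups of RIMS2, SNAP25 and CALM2 did not overlap, with KO higher, as in 22.6% of all tested genes.

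No gene of intracellular calcium channels, pumps and exchangers passed. Of 37 such genes 30 were listed and 9 tested (0 higher, 0 lower), where 8.05% of all tested genes were called. The median log2 fold change of these 9 was −1.39. At an unadjusted p under 0.05 edgeR found 4 of them, DESeq2 called 3 and limma-voom called 0. By the same rules edgeR found 729 of all 2560 tested genes, DESeq2 called 17.5% and limma-voom 12.2%. ATP2A2, the gene of the SERCA2 pump that loads the endoplasmic reticulum with calcium, had 19, 139 and 54 counts in WT and 41, 38 and 38 in KO, and its log2 fold change was −1.49 ± 0.48 (SE; adjusted p = 0.0850 in edgeR). ATP2B4, a plasma membrane calcium pump gene, had 5, 67 and 71 in WT and 11, 17 and 27 in KO (adjusted p = 0.104). ITPR2, an inositol trisphosphate receptor gene, had 0, 254 and 46 in WT and 19, 12 and 10 in KO (adjusted p = 0.117). VDAC1, a channel gene of the outer mitochondrial membrane, had 3, 48 and 10 in WT and 11, 5 and 11 in KO (adjusted p = 0.172). The KO libraries of ATP2A2, ATP2B4 and VDAC1 all lay below WT on the CPM scale, as in 12.3% of all tested genes. ITPR2 overlapped, with 0, 1016 and 290 CPM in WT replicates 1 to 3 and 41.8 to 79.9 in KO.

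A chosen list of AMPA receptor genes and partners of stargazin showed no call. Of 18 receptor and partner genes 13 were listed and 4 tested. None passed (0 higher, 0 lower), where 8.05% of all tested genes were called. The median log2 fold change of these 4 was −0.31. At an unadjusted p under 0.05 edgeR found 1 of them, and DESeq2 and limma-voom called 0. By the same rules edgeR found 729 of all 2560 tested genes, DESeq2 called 17.5% and limma-voom 12.2%. GRIA2, which encodes the subunit that limits the receptor's calcium entry, had 0, 6 and 10 counts in WT and 34, 25 and 34 in KO, and its log2 fold change was 1.89 ± 0.78 (SE; adjusted p = 0.151 in edgeR). GRIA3, another receptor subunit gene, had 27, 0 and 31 in WT and 34, 10 and 26 in KO (adjusted p = 0.464). The scaffold genes DLG1 and DLG3 had adjusted p of 0.484 and 0.953. DLG4, named here after its values were seen because its protein PSD-95 binds stargazin, had 0 counts in each WT library and 3, 4 and 12 in KO, too few to be tested. The deposited annotation gives the AMPA glutamate receptor complex other members, 16 listed and 6 tested. Of these 6, CACNG2 itself and OLFM1, which is outside the chosen list, were called higher and 0 lower. Over all tested genes 5.04% were called higher.

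Genes of calcium-dependent transcription, which act downstream of channel opening, held 5 genes that rose. All 33 were listed, 14 were tested and none fell (0), where 5.04% of all tested genes were called higher and 3.01% lower, with a median log2 fold change of 1.31 against −0.14 over all tested genes. NPAS4, which encodes a transcription factor induced by calcium entry through L-type channels in neurons, had 15, 35 and 20 counts in WT and 231, 225 and 225 in KO, and its log2 fold change was 2.22 ± 0.56 (SE; adjusted p = 0.0451 in edgeR). JUNB, an immediate early gene, had 3, 62 and 13 in WT and 240, 236 and 227 in KO, and its log2 fold change was 2.77 ± 0.58 (SE; adjusted p = 0.0279). MEF2A, which encodes a calcium-regulated transcription factor, had 13, 38 and 53 in WT and 269, 274 and 223 in KO, and its log2 fold change was 1.99 ± 0.50 (SE; adjusted p = 0.0451). In each of these 3 genes, every KO library exceeded every WT library on the CPM scale, as in 22.6% of all tested genes.

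CREM, which encodes a relative of CREB, had 0, 0 and 2 counts in WT and 30, 27 and 32 in KO, a ratio of 27.8 (95% interval 7.47 to 233; adjusted p = 0.0326). NR4A1, which encodes an inducible nuclear receptor, had 0, 0 and 1 in WT and 15, 21 and 18 in KO, a ratio of 33.7 (5.80 to 1356; adjusted p = 0.0263). The other 9 tested genes, among them FOS and CREB1, did not pass. Of the 14 tested, 12 had a positive log2 fold change and 2 a negative one. EGR1, named here after its values were seen, was not tested and had 2, 41 and 5 counts in WT and 8, 3 and 5 in KO. The 5 called genes and CAMK2B passed in 8 to 12 of 16 alternatives each. All 6 lost the call with any 1 KO library left out (adjusted p 0.0921 to 0.202), and all but JUNB lost it without WT replicate 2 (0.0561 to 0.0919). NPAS4, MEF2A and CAMK2B also lost it without WT replicate 3 (0.0703, 0.0517 and 0.0650). With library totals NPAS4 and MEF2A lost it (0.0658 and 0.0888), and against WT replicate 1 alone NR4A1 and CAMK2B did (0.0544 and 0.0650).

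**Figure D4:**
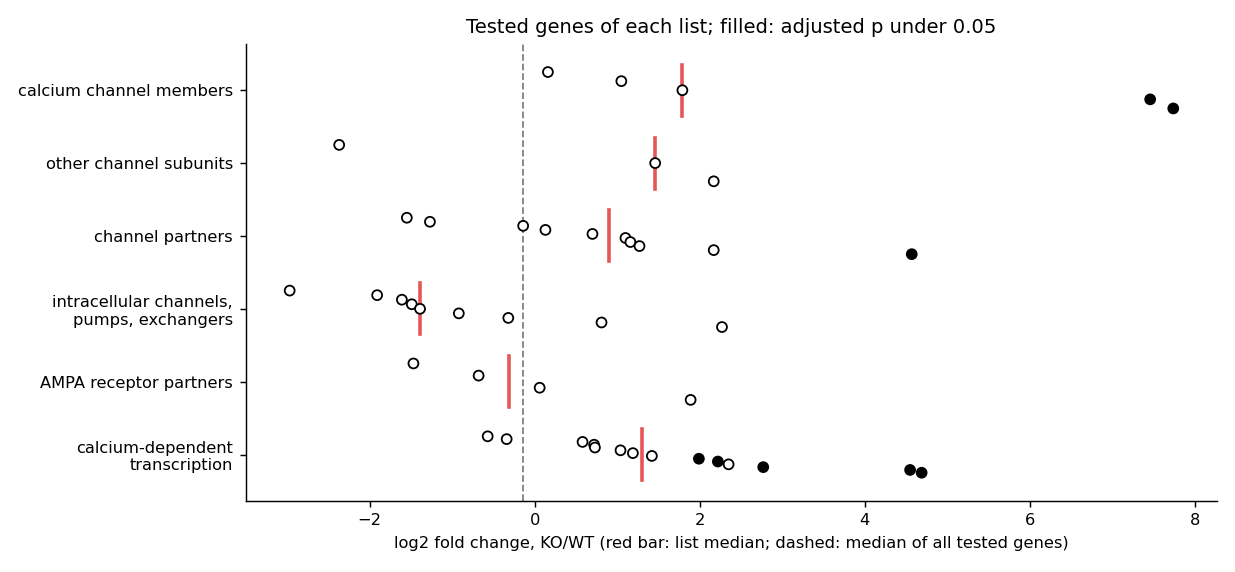
Log2 fold change (KO over WT) of each tested gene in the calcium channel lists, filled at an adjusted p under 0.05, with the list median in red and the median over all 2560 tested genes dashed at −0.14. The filled points are CACNB2 and CACNG2, CAMK2B, and 5 genes of calcium-dependent transcription, all higher in KO.

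Markers of other tissues with calcium channels were also counted. Of 21 neuron and glia markers, 12 were listed and took 0.214%, 0.0214% and 0.0458% of WT replicates 1 to 3 and 0.146% to 0.152% of KO. RBFOX3, which encodes the neuronal nuclear protein NeuN, had 1 WT and 0 KO counts, and GFAP of astrocytes had 1 and 1. ELAVL4, which encodes a neuronal RNA-binding protein, overlapped between the groups, with 1029, 16 and 152 CPM in WT and 850 to 930 in KO (adjusted p = 0.430 in edgeR). The dendrite gene MAP2 did not pass either (log2 fold change −0.57; adjusted p = 0.528). SYN1, a synaptic vesicle gene, had 19, 10 and 2 WT counts and 0, 3 and 4 KO counts and was not tested. NEFM, a neurofilament gene, had 0 WT counts and 143 KO counts and was called higher (adjusted p = 0.0237). Of 20 muscle markers, 14 were listed and took 0.0103% to 0.0310% of WT and 0.0555% to 0.0654% of KO, and MYH4, a fast myosin gene with similar family members, had 1 WT and 324 KO counts. Other muscle genes went either way. ACTA2 had 12 WT and 1 KO counts and TAGLN 21 and 9, while MYH11 had 12 and 45 and NEB 6 and 21. Of 15 pituitary markers, 6 were listed and took 0.00443% to 0.0333% of WT and 3.17% to 3.23% of KO, nearly all of it GH1 (18 WT and 21540 KO counts). Of 15 acinar and ductal markers 6 were listed, at 0 to 0.0183% of WT and 0.00709% to 0.0116% of KO. The part of any of these in the values of CACNB2, CACNG2 and CACNA1A was not tested.

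Of the 2560 tested genes, those with the pattern most like each subunit were found by the root mean square difference of centred log2 CPM over the 6 libraries. CACNB2 and CACNG2 were each among the 3 nearest genes of the other (0.21). The nearest to CACNB2 was DNAJB5 (0.19), a chaperone gene, and the nearest to CACNG2 was ISCA2 (0.19), a gene of iron-sulfur cluster assembly, each with 0 WT counts, and EYS was also near both (0.22 and 0.21). Genes without WT counts have little room to differ by this measure. CACNA1A was nearest to PTPRT (0.22), YY1 (0.31) and CRK (0.32), CACNA1C to NUFIP2 (0.11), CNOT4 (0.12) and PICALM (0.13), and CACNA1D to TMEM39A (0.13), DCUN1D1 (0.16) and TRIM23 (0.19). None of these 9 genes passed the test (0 called).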

How the data were processed

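The values are read counts per gene and library, per the file headers as deposited by the authors and not normalized. The submitters' processing notes list mm10 and, without role or order, edgeR 3.16.5, HTSeq 0.9.1, HISAT2 2.0.4 and cutadapt 1.9.3. Per the labels' protocols, ribosomal RNA was removed and the library kit marks strand; no source used here gives how reads reached human identifiers or whether counting used strand. A further 6 per-sample columns of normalized values were not used, and 1 row without an identifier stayed out.

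Groups and replicate numbers came from sample titles. The test was edgeR's, version 4.0.16 under R 4.3.3, on genes passing filterByExpr (TMM, quasi-likelihood F test on genotype, two-sided, Benjamini-Hochberg at 0.05); limma 3.58.1 and DESeq2 1.42.0 served alternatives. Standard errors come from the F statistic. A count of 0 was taken to allow 3 counts, over the group unless a library is named. Intervals are exact at 95% and cover counting error only. Floors cover the counting error of the WT count alone, and the summed KO value and a denominator gene's reads were taken without error. The fit was tested on simulated data. The subunits and gene lists were chosen with earlier results of these data known. Named were the members, the listed family, each further list's called genes with its 4 smallest p-values, and the 3 nearest patterns per member among genes averaging at least 5 CPM (prior count 2). Replicate numbers were not taken to pair libraries and the labels state no pairing, so whether libraries were paired is not known.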

Additional observations from a re-analysis of the deposited data

How the results depend on the processing

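The number of genes called, 206, was 439 with every gene tested, 385 with genes averaging 5 CPM or more, 447 with DESeq2, 312 with limma-voom, 137 with the replicate number as a block, 422 at a threshold of 0.1 and 0 at 0.01 (729 at an unadjusted p under 0.05 in edgeR; DESeq2 and limma-voom were not run at 0.01). It was 766 against WT replicate 1 alone, 0 with the KO columns summed (301 unadjusted) and 3 to 1527 with 1 library left out. The number of members called, 2, was 0 at 0.01, 0 with the KO columns summed and 0 to 5 with 1 library left out. Of the other channel subunits (0 called), 1 was called with every gene tested, with genes averaging 5 CPM or more, with DESeq2, with limma-voom, against WT replicate 1 alone and at 0.1, and 0 to 2 with 1 library left out.

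With 1 library left out, the log2 fold change ran from 1.35 to 3.93 for CACNA1A, 0.64 to 1.89 for CACNA1C, −0.27 to 2.61 for CACNA1D, and, as fitted values, 7.67 to 8.13 for CACNB2 and 7.40 to 7.86 for CACNG2. With the KO columns summed, the fitted values were 8.96 and 8.69, and neither passed. Against WT replicate 1 alone CACNA1D was −1.14, CACNA2D1 0.08, ITPR2 6.46, DLG1 1.38 and DLG3 −0.78. Values that changed sign elsewhere were GRIA3 with limma-voom (0.81), DLG1 with every gene tested (0.25), with genes averaging 5 CPM or more (0.29) and with KO summed (0.64), and DLG3 with DESeq2's size factors (−0.03) and test (−0.02). With 1 library left out, CACNA2D1 ran from −2.85 to 0.87, GRIA3 from −2.05 to 0.54, DLG1 from −0.64 to 0.01 and DLG3 from −0.30 to 1.15. For every 100 reads of CACNA1D, the KO minus WT difference ran from −6.48 to 2.82 for CACNA1C, −0.912 to 8.80 for CACNB3, −2.62 to 2.12 for CACNB4 and −257 to −2.08 for CACNA2D1, and against WT replicate 1 alone it was 6.53 for CACNA1C and 5.48 for CACNA2D1. The cause was not tested. Under the replicate block the log2 fold changes of the members were 2.46, 1.09, 1.14, 7.62 and 7.35 for CACNA1A, CACNA1C, CACNA1D, CACNB2 and CACNG2, with the same members called (MEF2A lost its call, at an adjusted p of 0.0827). Deviations of same-numbered libraries correlated at −0.01 to 0.02, so the numbers were not taken to pair libraries. With so few libraries, and WT libraries that differ in depth and tissue genes, this check cannot show that pairing is absent. DESeq2's size factors, library totals, and sizes computed without the genes above 1% of counts, changed no member's direction or call. The median of all genes tested moved from −0.14 to −1.06 with every gene tested, −0.61 with genes averaging 5 CPM or more, −0.26 with DESeq2's size factors, 0.00 with library totals, 0.22 with limma-voom, 0.15 with the block and 0.85 against WT replicate 1 alone. Depth limits all of this: 3 counts amount to 77.2 CPM in WT replicate 1.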
